A study of Homo sapiens with 6 samples.

Results

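Every nucleated human cell shows peptides on its surface in MHC class I molecules, each made of a heavy chain, a light chain and the peptide. The peptides are cut from cytosolic proteins by the proteasome, pumped into the endoplasmic reticulum by the TAP transporter and fitted into the heavy chain with the help of tapasin. Cytotoxic T cells read the result, and natural killer cells respond when class I is missing. The transcripts of this route were followed for 9 genes named in the deposited table of 58302 genes: the heavy chains *HLA-B*, *HLA-C* and *HLA-E*, the light chain *B2M*, the transporter subunits *TAP1* and *TAP2*, tapasin (*TAPBP*) and the immunoproteasome subunits *PSMB8* and *PSMB9*. They were chosen by name, and all 9 were among the 15847 genes with enough counts to be tested.

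The libraries were made from A549 cells, an established line of human lung adenocarcinoma, per the sample labels. The series' design text also names A549 but calls the profiles retinal, and the sample labels were followed. In the treated group, 3 libraries came from A549 given 1.0 µM of compound S541, also called 5n, for 48 h. In the control group, 3 libraries came from A549 given the solvent DMSO for the same time. The series' title concerns carbazole derivatives that disturb mitochondrial homeostasis, and nothing in the labels says that replicates were grown separately. The p-values therefore reflect how these libraries vary, and that variation may be technical.

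Total counts ranged from 13956648 to 17044139 per library. On the second principal component of log2 CPM (counts scaled to library size), which held 21.4% of the variance, the score was 34.4 for DMSO replicate 2, 20.5 for S541 replicate 3 and −22.9 to −7.95 for the other 4 libraries. The epithelial keratins *KRT8* (1794 ± 119 CPM in DMSO, SD, n = 3), *KRT7* (1253 ± 171 CPM) and *KRT18* (993 ± 44.0 CPM) were abundant. The other 3 epithelial markers were low, with 8.85 ± 0.867 CPM for *EPCAM*, 1.08 ± 0.115 CPM for *CDH1* and 2 to 8 counts per DMSO library for *KRT19*. The 10 immune cell markers together had 34 to 55 counts per DMSO library and 35 to 52 per S541 library. The T cell genes *CD3E* and *CD3D* and the B cell gene *MS4A1* were at 0 in all 6. Only these 3 of the 10 were at 0 throughout, and *CD14* had 3 to 16 counts per library.

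Some of these genes resemble each other closely. The coding sequences of *HLA-B* and *HLA-C* in GENCODE release 29 were 92.5% identical over 1086 aligned bases, and that of *HLA-E* was 86.8% identical to *HLA-B* and 86.3% to *HLA-C*. The longest identical coding stretches are shown because a read that falls inside them cannot be assigned to either gene by sequence. The first, of 66 bases, starts at coding base 420 of both *HLA-B* and *HLA-C*. The second, of 75 bases, starts at coding base 653 of *HLA-C* and 644 of *HLA-E*.
HLA-B and HLA-C: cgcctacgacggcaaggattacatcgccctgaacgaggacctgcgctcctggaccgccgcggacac
HLA-C and HLA-E: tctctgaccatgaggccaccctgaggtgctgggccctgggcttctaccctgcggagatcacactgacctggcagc
Of all stretches of 50 bases in the longest coding transcript, 2.54% in *HLA-B*, 6.71% in *HLA-C* and 5.13% in *HLA-E* also occurred in transcripts of another gene. In *B2M* and *PSMB8* the share was 0.0%, in *PSMB9* it was 12.1% and in *TAP2* it was 35.8%. These are reference alleles, and the alleles of A549 were not analysed here.

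Upstream regions are shown for the genes that passed the test, *TAPBP* and *TAP2*, and for *TAP1* and *B2M*, which did not. Of the genes with a window at hand, these 4 are the ones that held the interferon regulatory factor (IRF) motif, on either strand. The motif is printed in capitals, and overlapping matches run together. The windows of *HLA-B*, *HLA-C*, *PSMB8* and *PSMB9* held no exact match and are not shown, so the 4 shown do not stand for the route. The motif searched was GAAA, any 2 bases, and GAAA again. The windows are the 250 bases before the RefSeq start on GRCh38.p14, read 5′ to 3′ on the gene's strand. They lie at chr6:33314079-33314328 (minus) for *TAPBP*, chr6:32838740-32838989 (minus) for *TAP2*, chr6:32853705-32853954 (minus) for *TAP1* and chr15:44711267-44711516 (plus) for *B2M*.
TAPBP: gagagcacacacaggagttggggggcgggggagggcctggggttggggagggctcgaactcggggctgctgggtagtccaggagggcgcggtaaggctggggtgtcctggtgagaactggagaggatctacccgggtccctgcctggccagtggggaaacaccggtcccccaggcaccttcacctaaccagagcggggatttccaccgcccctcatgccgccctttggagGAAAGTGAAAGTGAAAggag
TAP2: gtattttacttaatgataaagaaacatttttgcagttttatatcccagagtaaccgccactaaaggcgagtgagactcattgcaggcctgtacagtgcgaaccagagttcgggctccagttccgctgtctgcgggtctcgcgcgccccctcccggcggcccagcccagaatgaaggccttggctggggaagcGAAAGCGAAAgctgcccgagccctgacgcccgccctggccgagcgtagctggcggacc
TAP1: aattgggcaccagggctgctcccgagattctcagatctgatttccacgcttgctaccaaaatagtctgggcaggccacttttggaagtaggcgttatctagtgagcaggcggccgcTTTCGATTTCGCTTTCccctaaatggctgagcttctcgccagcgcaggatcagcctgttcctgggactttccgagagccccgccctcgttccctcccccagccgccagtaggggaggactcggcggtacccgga
B2M: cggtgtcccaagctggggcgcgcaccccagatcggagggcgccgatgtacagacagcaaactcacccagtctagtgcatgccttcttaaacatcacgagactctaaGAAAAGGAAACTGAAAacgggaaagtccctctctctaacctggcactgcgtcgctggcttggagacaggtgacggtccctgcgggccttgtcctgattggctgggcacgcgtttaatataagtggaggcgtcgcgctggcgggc
The match nearest the start begins 14 bases before it in *TAPBP*, 58 in *TAP2*, 128 in *TAP1* and 138 in *B2M*. Windows were at hand for 8 of the 9 genes, and 4 of the 8 held the IRF motif, against 3.07% of 27305 windows of the same length. The CCAAT motif was found in 5 of 8 (33.0% of all windows) and TGACG, the core of a cyclic AMP response element, in 6 of 8 (21.7%), on either strand. The CCAAT matches of *TAP1* and *PSMB9* are the same site read on opposite strands, because the windows of these genes overlap. The motifs were chosen knowing the sequences, and a match only describes the letters.

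Across the route, S541 left most transcripts without a detectable change, while tapasin fell and *TAP2* rose. Of the 9 genes, 1 rose and 1 fell at an adjusted p-value under 0.05 (edgeR quasi-likelihood test, Benjamini-Hochberg over all tested genes) and 7 did not pass. Over all tested genes 8.19% were called, 4.02% as rises and 4.17% as falls. With a library left out, the fall of *TAPBP* passed in 2 of 6 fits and the rise of *TAP2* in 0. The libraries of the groups did not overlap in 3 of the 9, 1 higher and 2 lower in S541, a share close to the 31.1% of all tested genes. The median log2 fold change of the 9 was −0.056, against −0.0019 over all tested genes, and the median absolute value was 0.13 against 0.21. Bulk counts cannot tell fewer cells that carry a transcript from less of it per cell.

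**Figure D1:**
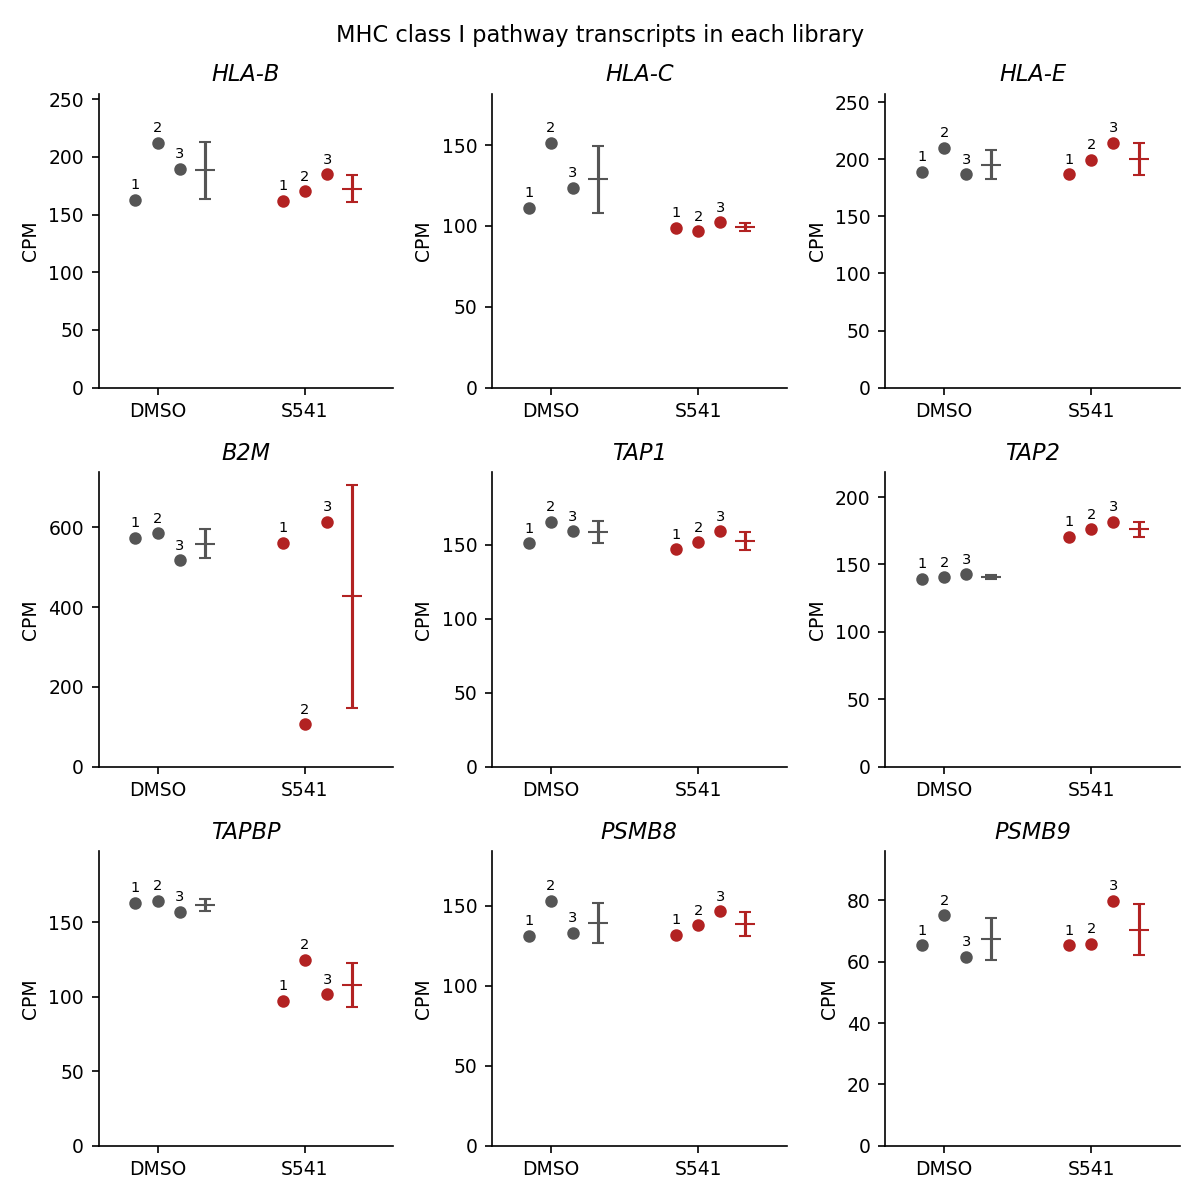
Level of each of the 9 transcripts in each library, in CPM with TMM scaling (vertical axes start at 0). Points are libraries with their replicate numbers, and the marks beside them are the group mean ± SD (n = 3). *TAPBP* was lower and *TAP2* higher in all 3 S541 libraries, and *B2M* was low in S541 replicate 2 alone.

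Tapasin, encoded by *TAPBP* (ENSG00000231925, hg38 chromosome 6, 33299694 to 33314387), bridges the heavy chain to the TAP transporter and helps select peptides that bind tightly. Its level was 163, 165 and 157 CPM in DMSO replicates 1 to 3 and 97.5, 125 and 102 CPM in S541 replicates 1 to 3. Every S541 library lay below every DMSO library, and the DMSO values were close together while S541 replicate 2 lay above the other S541 libraries. The log2 fold change was −0.58 (SE 0.11, 95% interval −0.83 to −0.33, adjusted p = 0.0200, edgeR), from 162 ± 3.97 to 108 ± 14.8 CPM (SD, n = 3). No exon of another gene overlaps those of *TAPBP*, and 6.09% of its 50-base stretches occur in transcripts of other genes. The fall passed with DESeq2 (adjusted p = 0.000394) and limma-voom (0.0190) too. It did not pass without DMSO replicate 1 (adjusted p = 0.0582, edgeR), DMSO replicate 3 (0.0670), S541 replicate 1 (0.0796) or S541 replicate 3 (0.0667), with log2 fold changes of −0.69 to −0.51 over all 6 fits with a library left out. In the authors' deposited table its log2 fold change is −0.58 and its Q-value 0.00681.

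The transporter associated with antigen processing pumps peptides and is built from TAP1 and TAP2, which work only as a pair. *TAP2* (ENSG00000204267, chromosome 6, 32821833 to 32838780) had 139.6, 141 and 143 CPM in DMSO and 170.5, 176 and 182 CPM in S541. The DMSO libraries were almost level and all S541 libraries lay above them. The log2 fold change was 0.32 (SE 0.07, 95% interval 0.15 to 0.49, adjusted p = 0.0373, edgeR), from 141 ± 1.57 to 176 ± 5.69 CPM. DESeq2 (adjusted p = 0.0172) and limma-voom (0.0382) called it as well. With any single library left out it did not pass (adjusted p = 0.0516 without DMSO replicate 2 and up to 0.113 in the other 5 fits, edgeR), though the log2 fold change stayed between 0.30 and 0.35. With no filter on low counts the adjusted p was 0.0790. The authors' deposited table gives *TAP2* a log2 fold change of 0.32 with a Q-value of 0.245. Another gene model on the same strand, AL669918.1, covers 32.3% of the *TAP2* exons and was given 50, 31 and 24 counts in DMSO and 13, 16 and 44 in S541, against 2068 to 2815 for *TAP2*.

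*TAP1* (ENSG00000168394, chromosome 6, 32845209 to 32853978) did not pass. Its level was 151, 166 and 159 CPM in DMSO and 147, 152 and 159 CPM in S541, with overlapping groups. The log2 fold change was −0.056 (SE 0.08, 95% interval −0.24 to 0.13, adjusted p = 0.712, edgeR). The *TAP1* to *TAP2* ratio of counts, which does not depend on scaling, was 1.08, 1.18 and 1.12 with DMSO and 0.863, 0.863 and 0.875 with S541. *TAP1* thus had more counts than *TAP2* in each DMSO library and fewer in each S541 library. These counts are not divided by length. Per kilobase of the longest coding transcript, *TAP1* lay above *TAP2* in both groups. The means were 53.7 against 24.8 CPM per kilobase in DMSO and 51.6 against 31.0 in S541. The log2 ratio differed by −0.38 between the groups (exact permutation test, 2-sided, p = 0.1, the smallest that 3 against 3 allows, and 0.5 after Benjamini-Hochberg adjustment over 5 ratios). It stayed between −0.40 and −0.34 with any single library left out.

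The immunoproteasome subunits *PSMB8* and *PSMB9* replace the constitutive catalytic subunits *PSMB5* and *PSMB6* in cells exposed to interferon gamma and change which peptides are cut. They lie beside the transporter genes in the class II region of chromosome 6, and the RefSeq starts of *PSMB9* and *TAP1*, on opposite strands, are 488 bases apart. *PSMB8* (ENSG00000204264, 32840717 to 32844703) had 131, 153 and 133 CPM in DMSO and 132, 138 and 147 CPM in S541, and *PSMB9* (ENSG00000240065, 32844136 to 32859585) had 65.3, 75.2 and 61.7 CPM in DMSO and 65.4, 65.8 and 79.9 CPM in S541. The groups overlapped for both genes. The log2 fold changes were −0.0048 (SE 0.09, 95% interval −0.22 to 0.21, adjusted p = 0.983, edgeR) for *PSMB8* and 0.06 (SE 0.12, −0.21 to 0.34, adjusted p = 0.792) for *PSMB9*. These intervals leave room for changes smaller than that measured for *TAPBP*. Exons of the gene *PSMB8-AS1* overlap those of *TAP1* and *PSMB8* on the opposite strand. They also overlap 5.66% of the *PSMB9* exons, on the same strand. *PSMB8-AS1* had 60 to 95 counts per library, against at least 933 for *PSMB9*. Exons of *PSMB8* and *PSMB9*, on opposite strands, overlap as well. Whether strand was used in counting is not stated, so reads of overlapping genes may not have been told apart. Strand could not part *PSMB9* from *PSMB8-AS1* in any case.

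The groups overlapped in each ratio of immunoproteasome to constitutive subunits. The *PSMB8* to *PSMB5* ratio of counts was 0.976, 0.887 and 0.914 in DMSO and 1.03, 0.954 and 0.850 in S541 (log2 difference 0.02, exact permutation p = 0.9). The *PSMB9* to *PSMB6* ratio was 0.473, 0.528 and 0.478 in DMSO and 0.493, 0.446 and 0.531 in S541 (−0.01, exact permutation p = 1). For the third catalytic pair, *PSMB10* to *PSMB7*, the ratio was 0.0813, 0.0867 and 0.0754 in DMSO and 0.0728, 0.0665 and 0.0786 in S541 (−0.16, exact permutation p = 0.2, adjusted 0.5).

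**Figure D2:**
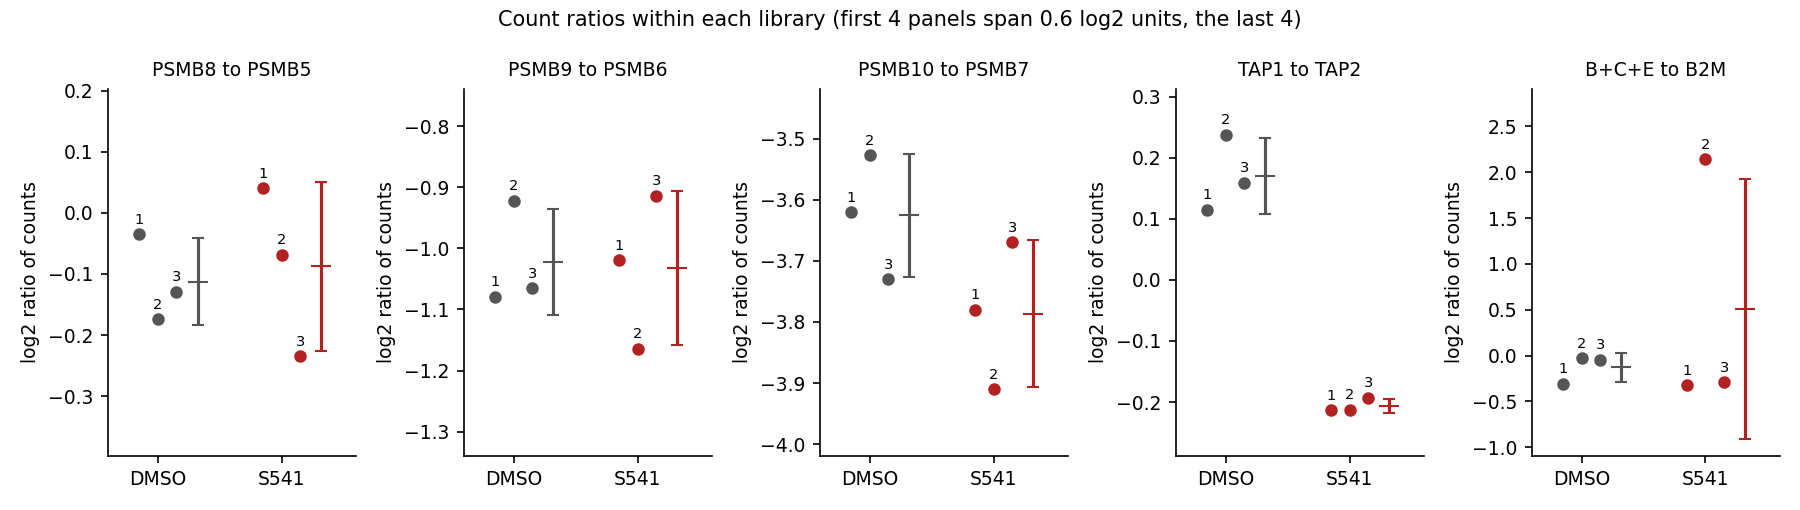
Log2 ratio of counts within each library for the 3 immunoproteasome subunits against their constitutive counterparts, *TAP1* against *TAP2*, and the summed heavy chains (*HLA-B*, *HLA-C* and *HLA-E*) against *B2M*. Points are libraries with replicate numbers, marks are mean ± SD (n = 3), and the first 4 panels span the same length on the log2 axis. The groups are separate for *TAP1* to *TAP2*, and S541 replicate 2 stands alone in the last panel.

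The heavy chains of classical class I molecules present peptides to T cells, and *HLA-E*, a non-classical heavy chain, is a ligand of an inhibitory receptor on natural killer cells. *HLA-C* (ENSG00000204525, chromosome 6, 31268749 to 31272130) was lower in each S541 library but missed the threshold. It had 111, 152 and 124 CPM in DMSO and 99.1, 96.8 and 102 CPM in S541. The S541 libraries were close together, and the DMSO libraries were spread, with replicate 2 highest. The log2 fold change was −0.38 (SE 0.12, 95% interval −0.65 to −0.10, unadjusted p = 0.0139, adjusted p = 0.0975, edgeR). The extremes over the 6 fits with a library left out were −0.47 without DMSO replicate 1 (adjusted p = 0.0700, edgeR) and −0.24 without DMSO replicate 2 (0.132). *HLA-C* passed in 0 of the 6. In the authors' deposited table its Q-value is 0.210.

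*HLA-B* (ENSG00000234745, chromosome 6, 31269491 to 31357188) had 163, 212 and 189.7 CPM in DMSO and 162, 170.3 and 185 CPM in S541, and *HLA-E* (ENSG00000204592, chromosome 6, 30489467 to 30494205) had 189, 210.0 and 187 CPM in DMSO and 187, 199.6 and 215 CPM in S541. Both sets of libraries overlapped. The log2 fold changes were −0.13 (SE 0.11, adjusted p = 0.541, edgeR) for *HLA-B* and 0.04 (SE 0.09, adjusted p = 0.844) for *HLA-E*. Since reads may move between these similar genes, the counts of the 3 were also summed. Summing covers sharing among the 3 but not with other genes. In *HLA-C*, 3.72% of the 50-base stretches occurred in another of the 3, against 6.71% in any other gene. The shares were 2.07% against 2.54% in *HLA-B* and 1.06% against 5.13% in *HLA-E*. The sum was 513 ± 56.3 CPM in DMSO and 472 ± 27.4 CPM in S541, a log2 fold change of −0.12 (SE 0.10, 95% interval −0.35 to 0.11, adjusted p = 0.514, edgeR). The estimate was −0.19 without DMSO replicate 1 and −0.030 without DMSO replicate 2 for the sum, and −0.22 and −0.033 for *HLA-B*, the extremes over the 6 fits with a library left out. The annotated span of *HLA-B* reaches into *HLA-C*, but exons of *HLA-C* on the same strand cover only 1.15% of its exons. The pseudogene *AL671883.2*, which accounts for most of the rest of the 18.9% overlapped, had 0 to 2 counts per library.

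*B2M* (ENSG00000166710, chromosome 15, 44711477 to 44718877) encodes beta-2 microglobulin, the light chain that every class I heavy chain needs to reach the cell surface. Its level was 574, 585 and 517 CPM in DMSO and 561, 106 and 614 CPM in S541. S541 replicate 2 held 1693 counts where the other 5 libraries held 7999 to 9744. With all 6 libraries the log2 fold change was −0.39 (SE 0.52, 95% interval −1.59 to 0.81, adjusted p = 0.695, edgeR). Without S541 replicate 2 it was 0.08 (SE 0.10, adjusted p = 0.716), so the sign of the estimate rests on that library.

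The other 8 genes lay nearer to their levels elsewhere in that library. In S541 replicate 2, *B2M* stood at 18.9% of the mean of the other 5 libraries as a share of the library total, whereas the other 8 genes stood at 83.8% (*HLA-C*) to 115% (*TAP2*). The ratio of summed heavy chains to *B2M* was 0.808, 0.982 and 0.968 in DMSO and 0.798 and 0.817 in S541 replicates 1 and 3, against 4.41 in S541 replicate 2. No exon of another gene overlaps *B2M*. A cause for this value was not tested.

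**Figure D3:**
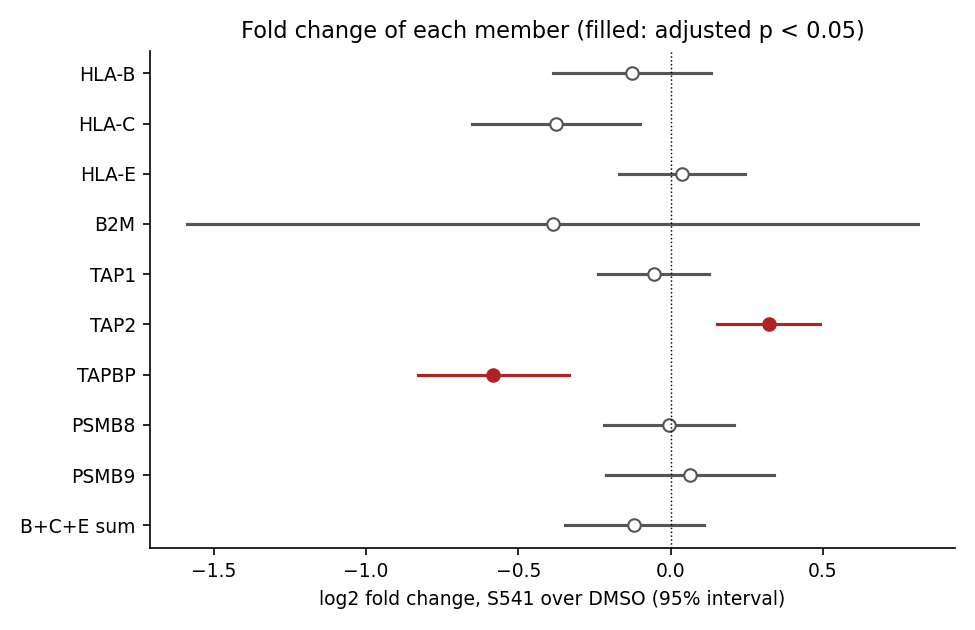
Log2 fold change (S541 over DMSO) of the 9 genes and of the summed heavy chain counts, with 95% intervals from the edgeR quasi-likelihood fit of 6 libraries. Filled red points passed an adjusted p of 0.05. *TAPBP* and *TAP2* passed in opposite directions, and the interval of *B2M* is the widest.

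Levels can be compared between genes only per length, here as CPM per kilobase of the longest coding transcript in the basic set of GENCODE release 29. In DMSO, *B2M* had 327 ± 21.4, *HLA-B* 122 ± 16.0, *PSMB8* 103 ± 9.07, *PSMB9* 85.1 ± 8.81, *HLA-C* 82.9 ± 13.3 and *HLA-E* 75.1 ± 4.92 CPM per kilobase (SD, n = 3). *TAP1* followed with 53.7 ± 2.49, *TAPBP* with 43.0 ± 1.06 and *TAP2* with 24.8 ± 0.276 CPM per kilobase. The libraries overlapped between *HLA-B* and *PSMB8* and among *PSMB9*, *HLA-C* and *HLA-E*, and did not overlap between the other neighbours in this order. The length used for a gene is the same in every library. Overlap and SD therefore do not show how far the order depends on that length, in either group. *HLA-B* was taken at 1547 bases where its annotated exons cover 3051, and *HLA-E* at 2601 where they cover 2975. In S541, *TAPBP* (28.7 ± 3.93) and *TAP2* (31.0 ± 1.00) no longer stood apart, since the libraries overlapped, and *HLA-C* (63.9 ± 1.76) lay below *HLA-E* (77.0 ± 5.38) without overlap.

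The authors' FPKM values give another order, with *HLA-E* (48.8), *PSMB8* (44.7) and *B2M* (43.3) highest in the DMSO means. The gene lengths that these FPKM imply were worked out as if FPKM were scaled to the summed gene counts, which is not stated. They came to 12755 bases for *B2M*, whose annotated exons together cover 6079, and 8691 for *TAPBP*, whose exons cover 5056. For *PSMB8* (3082 against 2997), *TAP1* (5481 against 4805) and *HLA-E* (3958 against 2975) the implied length lay nearer to the exons. The fold change within a gene is not touched by that length.

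The same libraries stood highest for most of the 9 genes. Among the DMSO libraries, replicate 2 was highest for 8 of the 9 genes, and among the S541 libraries replicate 3 was highest for 8 of 9. How often each library stood highest over all tested genes was not counted, so this cannot be called particular to the 9. DMSO replicate 2 and S541 replicate 3 are the libraries that lay apart on the second principal component. Their part in the results was measured by leaving both out. The log2 fold changes were then −0.53 for *TAPBP* (adjusted p = 0.0760, edgeR), 0.30 for *TAP2* (0.0676) and −0.26 for *HLA-C* (0.130), and none of the 9 passed. That fit has 2 libraries per group, and 1020 genes passed in it over the whole table.

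**Figure D4:**
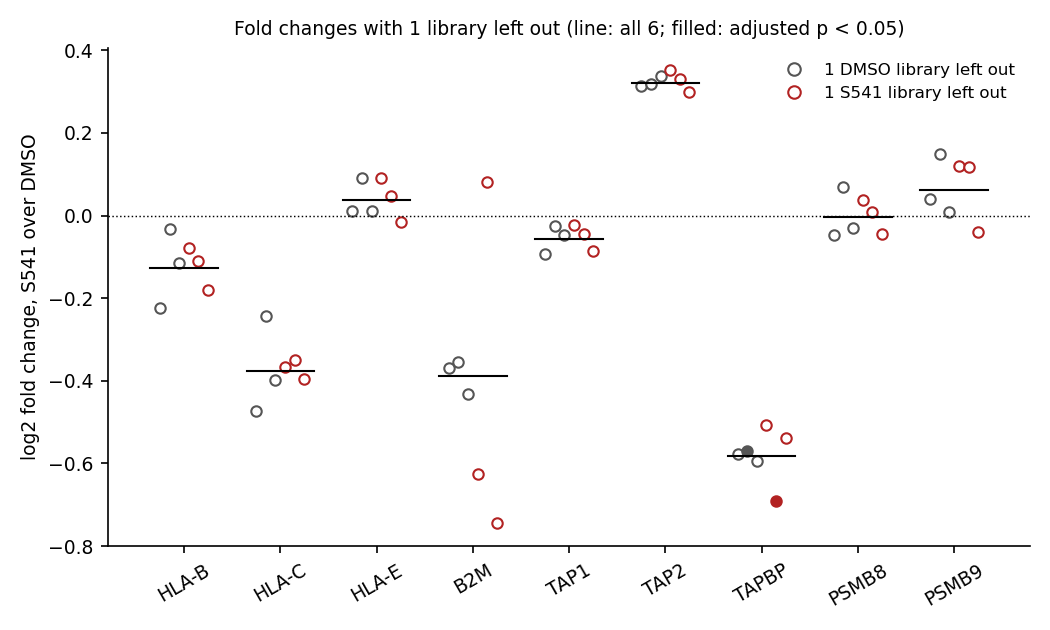
Log2 fold change of each gene in the 6 edgeR fits that leave out 1 library (points, coloured by the group of the library left out) and with all 6 libraries (line). Filled points passed an adjusted p of 0.05. *TAP2* stays between 0.30 and 0.35 without passing, *TAPBP* passes in 2 of 6, and *B2M* changes sign without S541 replicate 2.

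Class I genes are induced by interferon signalling through IRF1 and by the transactivator NLRC5. Over 12 lists of pathway and marker genes, 9 of 111 tested genes changed (8.11%, against 8.19% of all tested genes), 4 upward and 5 downward. *NLRC5* and *IRF1* did not pass: *NLRC5* went from 59.6 ± 3.55 to 64.7 ± 3.71 CPM (0.12 on the log2 scale, SE 0.09, adjusted p = 0.477, edgeR) and *IRF1* from 26.0 ± 3.51 to 25.4 ± 2.41 CPM (−0.031, adjusted p = 0.918). Of 13 regulators of class I transcription, 0 passed with edgeR or limma-voom and 1 with DESeq2. Of the 13, 4 had an unadjusted p under 0.05, and 10 had a fold change below 0 (median −0.14). Over the whole table DESeq2 called 1790 genes and limma-voom 1254. Genes with an unadjusted p under 0.05 were not counted over all tested genes. Such counts per list, here and below, therefore cannot show an excess. Abundant members were *RELA* (0.014), a subunit of NF-kappa B, and *RFX5* (0.27), which binds the class I promoter. *RFX5* was at 64.2 CPM in DMSO replicate 2, against 112 and 110.2 CPM in the other DMSO libraries, and its value was 0.048 without that library. Of 13 interferon receptor and JAK-STAT genes, *JAK1* (−0.048) included, 0 passed with edgeR, DESeq2 or limma-voom, 1 had an unadjusted p under 0.05, and the median was −0.12.

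Interferon-stimulated genes were split in sign. Of 29 listed, 26 were tested, 11 had a fold change above 0 and 15 below (median −0.082), 0 rose and 2 fell with edgeR. DESeq2 called 4 and limma-voom 2, and 6 had an unadjusted p under 0.05 with edgeR. Short of the threshold, *ISG15* (0.52, adjusted p = 0.0646, edgeR) and *BST2* (0.31, adjusted p = 0.0622) were higher in each S541 library than in any DMSO library. Of the 26 tested genes, 3 were higher and 5 lower in S541 without overlap of the libraries. Over all tested genes these shares were 15.9% and 15.2%. The membrane protein *IFITM2*, which restricts virus entry, went from 79.0 ± 12.6 to 50.8 ± 4.70 CPM (−0.64 on the log2 scale, SE 0.13, adjusted p = 0.0303, edgeR), and *IFI6* from 42.9 ± 1.83 to 30.2 ± 1.84 CPM (−0.51, SE 0.10, adjusted p = 0.0223). *IFITM2* did not pass without DMSO replicate 3 or any S541 library (adjusted p = 0.0602 to 0.113), nor *IFI6* without DMSO 1 or 3 or any S541 library (0.0595 to 0.0872). With no filter on low counts *IFITM2* had an adjusted p of 0.0557. Reads of *IFITM2* may be shared with its close paralogs.

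Among the partners of the route, single genes passed. The endoplasmic reticulum chaperone *HSPA5* rose from 997 ± 24.6 to 1454 ± 18.8 CPM (0.54, SE 0.07, adjusted p = 0.00525, edgeR) and passed with any library left out, while the other 7 loading and folding genes did not pass, among them calreticulin (*CALR*, 0.19, adjusted p = 0.285) and the tapasin partner *PDIA3* (0.16, 0.291). *POMP*, which assembles proteasomes, rose from 98.7 ± 5.50 to 127 ± 5.23 CPM (0.37, adjusted p = 0.0367) among 6 proteasome activator and assembly genes. The cytosolic aminopeptidase *NPEPPS* fell from 163 ± 8.12 to 119.5 ± 14.4 CPM (−0.44, adjusted p = 0.0433) among 9 peptide trimming enzymes. *POMP* and *NPEPPS* lost their calls whichever library was left out (0.0581 to 0.129 and 0.0570 to 0.146) and when no low-count filter was applied (0.0718 and 0.0790). None of the 3 constitutive catalytic subunits passed with edgeR, DESeq2 or limma-voom, nor at an unadjusted p under 0.05 (0 genes), and of 8 genes of translocation and class I turnover, such as *SEC61A1* (−0.22) and *BCAP31* (0.19), 0 passed with the same tools and 3 had an unadjusted p under 0.05.

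Of 13 tested class I-like genes, 10 had a fold change above 0 (median 0.21) and 1 passed. *MR1*, which presents vitamin B metabolites to mucosal-associated T cells, rose from 4.99 ± 0.798 to 9.88 ± 1.45 CPM (0.98, SE 0.18, adjusted p = 0.0213, edgeR). Its call was lost without DMSO 1 or 3 or any S541 library (0.0521 to 0.0801). Of 14 class II pathway genes only 4 had enough counts, and *HLA-DRA*, *HLA-DRB1*, *HLA-DPA1* and *HLA-DPB1* had at most 2 counts in any library. The lysosomal protease *CTSS*, which trims the class II invariant chain, rose from 7.38 ± 0.950 to 13.0 ± 1.21 CPM (0.81, SE 0.15, adjusted p = 0.0218) and lost its call without DMSO 3 or any S541 library (0.0535 to 0.0849).

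**Figure D5:**
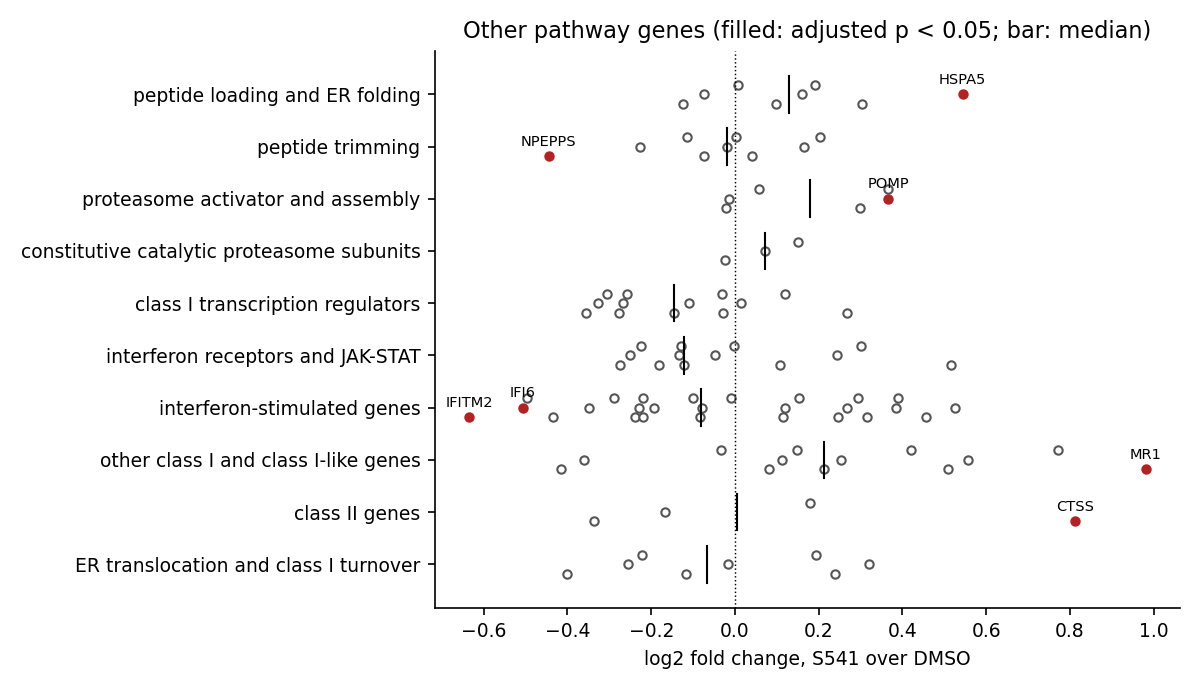
Log2 fold change (S541 over DMSO) of each tested gene in 10 lists of other pathway genes. Filled red points, named, passed an adjusted p of 0.05 in the edgeR fit, and black bars are list medians. Of the points shown, 7 passed.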

How the data were processed

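RNA-seq counts were analysed for 6 libraries of A549, 3 per group. The deposited table holds whole-number counts per gene made by the authors, per the file headers, used here as deposited. FPKM values in that table were also made by the authors, per the file headers, as were the log2 fold changes and the p-values and Q-values of their own comparison. The genome build is hg38 and edgeR was used, per the submitters' processing notes. Aligner, counting tool and strand setting were all not given in the sources used here.

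Models were fitted with edgeR 4.0.16 under R 4.3.3 (TMM scaling, filterByExpr, group as the only term, quasi-likelihood test, 2-sided). CPM carry TMM scaling. Total counts of 13956648 to 17044139 per library set the precision. Alternatives used DESeq2 1.42.0, limma 3.58.1 (voom), other scalings and filters, the replicate number as a block, and each library left out. The fits were tested on simulated data in which the changed genes averaged at least 50 counts. Transcripts and exons came from GENCODE release 29 and upstream windows from RefSeq on GRCh38.p14.

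Named were the 9 members, the genes of the 5 ratios, *NLRC5* and *IRF1*, and per list up to 4 members past the threshold, or else the 2 most abundant, of which 2 genes are not reported here. *CALR*, *PDIA3*, *CANX*, *ISG15*, *BST2*, the other epithelial markers, *TAF7*, *EID1* and the low class II and immune genes were added after their values were seen. The members and lists were chosen with earlier results of these data known.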

Additional observations from a re-analysis of the deposited data

How the results depend on the processing

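The number of the 9 genes past the threshold was 2 with edgeR, DESeq2, limma-voom, DESeq2 size factors, upper-quartile scaling and a minimum of 1 CPM in 3 libraries, 1 with no filter on low counts, and 0 to 1 with a library left out. With DMSO replicate 2 and S541 replicate 3 left out together, chosen after seeing the data, it was 0, and 8 of the list genes passed. With the replicate block it was 0 (*TAPBP* adjusted p = 0.0543, *TAP2* 0.144), the number of genes changed fell from 1298 to 392, and that of the 12 lists, marker lists included, from 9 to 2. After centring within each group, same-numbered libraries correlated at 0.104, −0.081 and −0.078, and 2 of 6 correlated best with their own number. With 3 libraries per group, these correlations cannot decide whether equal replicate numbers pair the libraries, and the labels do not say. Genes changed were 753 with no filter and 349 to 1330 with a library left out, and list genes changed 2 to 10. Of 111 tested list genes, 8.11% changed.

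The median of the 9 ranged from −0.092 to 0.0078 with a library left out, above 0 without S541 replicate 2. Ratios with a library left out ranged from −0.039 to 0.098 for *PSMB8* to *PSMB5*, −0.070 to 0.056 for *PSMB9* to *PSMB6* and −0.18 to 1.05 for summed heavy chains to *B2M*. Genes near 0 changed sign without passing. With a library left out the values were −0.75 to 0.081 for *B2M*, −0.016 to 0.091 for *HLA-E*, −0.047 to 0.069 for *PSMB8*, −0.039 to 0.15 for *PSMB9*, −0.11 to 0.083 for *IRF1*, −0.14 to 0.13 for *PSMB10*, −0.15 to 0.084 for *PSMB5*, −0.053 to 0.084 for *RELA* and −0.041 to 1.15 for *CD14*. *PSMB8* was 0.0028 under upper-quartile scaling. Without DMSO replicate 2 and S541 replicate 3, *PSMB8* was 0.030, *IRF1* 0.031 and *RFX5* −0.0012. The causes were not tested. Groups of 3 limit what can be shown: the 95% intervals allow changes of about the size seen for *TAP2* in *PSMB9*.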

Other observations

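Large gaps confined to 1 library were rare in these data. Of 4898 genes with a median of at least 50 CPM, 3 were at least 4-fold below all 5 other libraries in 1 library: *B2M* in S541 replicate 2, *TAF7* in DMSO replicate 2 and *EID1* in S541 replicate 1. None of the 4898 was at least 4-fold above all others in a single library. The cause of these values was not tested.

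The chaperone calnexin (*CANX*), which folds new heavy chains, fell into 2 levels that crossed the groups. It had 1360, 1270.0 and 671 CPM in DMSO and 712, 1374 and 1233 CPM in S541, so that DMSO replicate 3 and S541 replicate 1 were low, and its log2 fold change was 0.0079 (SE 0.31, adjusted p = 0.992, edgeR).

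The keratins *KRT8* (log2 fold change −0.50, adjusted p = 0.0124, edgeR) and *KRT18* (−0.63, adjusted p = 0.00750), used here to check the cell type, fell, to 1273 ± 60.2 and 641 ± 53.3 CPM. *KRT18* passed with any library left out, and *KRT8* did not pass without S541 replicate 1 (0.0642) or S541 replicate 2 (0.0631), nor with the replicate block (0.0672). The other 4 epithelial markers did not pass, with log2 fold changes of 1.71 for *KRT19* (adjusted p = 0.0668, edgeR, 2 to 25 counts per library), 0.25 for *KRT7* (0.238), 0.22 for *EPCAM* (0.435) and −0.92 for *CDH1* (0.101).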
